A study of Homo sapiens with 3 samples.

Results

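Genes of the NF-kB pathway were followed under 3 conditions in a basal-type human breast cancer line, MDA-MB-231. The members were chosen by name, as 41 genes for the subunits of NF-kB, their inhibitors and genes that NF-kB induces, with CXC chemokines and IL6 left out. A probe set (the group of oligonucleotides that reads a transcript on the array) was used when it was annotated to a single gene symbol. This gave 78 probe sets for 36 of the 41 genes, out of 54675 probe sets on the array and 19775 genes with such a probe set. The vehicle culture received 0.1% ethanol, and the other cultures received 1 µM estradiol, the main natural estrogen, or 1 µM tamoxifen, an antiestrogen. Each treatment lasted 3 h and followed 4 h in medium with 10% charcoal-stripped serum, which is depleted of steroids and which all 3 cultures shared. By the labels each condition was 1 array of bulk RNA from a single cell line, so no difference below has a replicate error or a p-value, and fewer responding cells cannot be told apart from less RNA per cell.

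NF-kB is a family of dimeric transcription factors built from RELA, RELB, REL and the products of NFKB1 and NFKB2. In resting cells IkB proteins hold the dimers in the cytoplasm. Receptors for TNF, interleukin 1 and microbial products activate the IkB kinases, IkB is degraded, and the freed dimers induce cytokines, adhesion molecules and survival genes together with their own inhibitors, such as NFKBIA and TNFAIP3. MDA-MB-231 cells are known for constitutive NF-kB activity, and they are commonly classed as lacking the estrogen receptor.

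The deposited numbers are log2 values that lie around 0, so they appear to be centred for each probe set on a baseline that is not stated. Base 2 was taken from robust multi-array averaging (RMA), and higher values were assumed to mean more RNA. Brightness was read from the binary steps of the numbers, and a gene was kept above a floor of about 4 on the log2 scale, which 12067 genes passed. Of the 36 NF-kB genes, 29 lay above it, 15 of them in the brightest band (8 or more), and 7 lay below. Over the genes above the floor the vehicle values had an SD of 0.20, against 0.49 for estradiol and 0.49 for tamoxifen. Differences from vehicle are therefore given as deposited and with the vehicle value doubled, a setting in which a shared baseline need not cancel. The comparison of tamoxifen with estradiol does not use the vehicle values. All 5 markers of the cell line (VIM, CD44, AXL, CAV1 and MSN) lay above the floor, all in the brightest band. Above the floor were also 3 of 6 luminal markers (EPCAM and GATA3 in the brightest band, and ESR1), 1 of 5 measured leukocyte markers and 3 of 5 fibroblast and endothelial markers. Bacterial poly-A control transcripts, spiked in ahead of labelling and read by 27 probe sets, also lay above their vehicle values. Their median difference was 0.99 for estradiol (0.44 doubled) and 0.84 for tamoxifen (0.36 doubled), and the part of this shift in the differences below was not tested.

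Sequences before the starts of the genes are shown first, for genes whose values are described below. They come from RefSeq starts on GRCh38.p14. Starts were found for 34 of the 41 genes. The kappa-B consensus, the site that NF-kB dimers bind, was searched on both strands in the 250 bases before each start. It matched at 1 or more starts of 15 of these 34 genes (44.1%), against 1715 of all 27305 genes (6.28%). Counted by starts, the shares were 33.9% and 5.21%. The genes were chosen by name as NF-kB genes, so these shares are a description and not a test. The shorter motif GGGNNNTTC, which can overlap the consensus and was also searched on both strands, was found for 16 of the 34 genes (47.1%), against 15.9% of all genes. The last 120 bases before a start follow for 8 genes, with consensus matches in capitals. All but ICAM1 hold a match, so these 8 do not stand for the 34 genes. No match was found at any start of TRAF1, IRAK2, SOD2, PLAU, GADD45B or TNFAIP2, also described below. The same holds for RELA, BIRC2, TNIP2, TNFAIP8, TNF, IL1A, IL1B and BCL2A1. No start was found under the symbols RELB, CSF1, RIPK2, CSF3, CCL2, CCL5 and NFKBIE, so these genes were not searched. NFKB1 and TNIP1 each have 2 starts in the table, and the one with a match is shown, while the other had none.
NFKB1, chr4:102501239-102501358, plus strand: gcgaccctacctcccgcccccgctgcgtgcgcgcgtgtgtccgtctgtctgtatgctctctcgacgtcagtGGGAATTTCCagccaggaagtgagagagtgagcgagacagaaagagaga
REL, chr2:60881454-60881573, plus strand: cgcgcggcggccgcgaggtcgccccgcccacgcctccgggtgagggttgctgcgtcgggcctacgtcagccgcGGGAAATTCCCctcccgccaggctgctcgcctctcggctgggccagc
NFKBIA, chr14:35404750-35404869, minus strand: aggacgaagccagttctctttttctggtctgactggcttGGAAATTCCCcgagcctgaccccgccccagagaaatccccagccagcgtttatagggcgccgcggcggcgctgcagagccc
TNFAIP3, chr6:137867139-137867258, plus strand: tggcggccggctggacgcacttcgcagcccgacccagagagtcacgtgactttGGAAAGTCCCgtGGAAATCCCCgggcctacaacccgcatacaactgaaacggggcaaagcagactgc
TNIP1, chr5:151081035-151081154, minus strand: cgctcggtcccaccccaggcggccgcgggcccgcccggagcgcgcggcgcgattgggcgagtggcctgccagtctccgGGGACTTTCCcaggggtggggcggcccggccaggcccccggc
PTX3, chr3:157436730-157436849, plus strand: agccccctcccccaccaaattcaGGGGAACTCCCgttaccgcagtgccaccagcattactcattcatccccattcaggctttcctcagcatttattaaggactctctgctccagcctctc
SDC4, chr20:45348425-45348544, minus strand: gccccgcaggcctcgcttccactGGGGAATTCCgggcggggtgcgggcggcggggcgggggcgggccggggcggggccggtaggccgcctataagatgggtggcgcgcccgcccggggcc
ICAM1, chr19:10271000-10271119, plus strand: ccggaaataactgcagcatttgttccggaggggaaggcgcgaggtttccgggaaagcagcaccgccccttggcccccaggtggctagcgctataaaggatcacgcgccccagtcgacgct
The matches begin 49 bases before the start shown in NFKB1, 81 in NFKBIA, 42 in TNIP1 and 97 in SDC4. In REL the matches at 47 and 46 bases overlap, as do those at 97 and 96 bases in PTX3. TNFAIP3 had 2 separate matches, at 67 and 55 bases. ICAM1 is shown because it differed most between the ligands. Its window held no match, which says only that those letters are absent from it.

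With estradiol, 7 of the 29 NF-kB genes were at least 1.5-fold higher than in the vehicle values and 1 was at least 1.5-fold lower. Over all 12067 genes above the floor, 5.83% were higher and 2.65% lower by this rule. The higher genes were CSF1, ICAM1, RELB, PTX3, IRAK2, TRAF1 and NFKB1, and the lower gene was SOD2, read by a single probe set. With the vehicle doubled, 8 were higher and 1 lower (4.39% and 1.92% of all genes). In both versions 6 genes were higher and 1 lower (2.35% and 1.28% of all genes). The median over the 29 genes was -0.02 (0.01 with the vehicle doubled), against 0.02 (0.07) over all genes, and 15 of the 29 lay below 0, against 46.7% of all genes. The estradiol value was the highest of the 3 columns for 11 of the 29, against 31.6% of all genes. As deposited, the difference therefore lay in a subset of the NF-kB genes and not in their median. Of the higher genes only PTX3 lay in the brightest band, and the others lay between 4 and 8. The subset also depended on the averaging. With all probe sets averaged, TRAF1 (0.34) and IRAK2 (0.38) fell short of 1.5-fold. REL (0.65) and PLAU (0.59) then passed it, and the median was 0.12.

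With tamoxifen, 3 of the 29 were at least 1.5-fold higher than vehicle (CSF1, PTX3 and TRAF1) and 3 at least 1.5-fold lower (SOD2, SDC4 and TNIP1). All genes gave 6.97% and 4.33%. With the vehicle doubled, 3 were higher and 6 lower (7.14% and 3.64% of all genes). In both versions 2 were higher and 3 lower (4.04% and 2.28% of all genes). The median over the 29 genes was 0.01, and -0.05 with the vehicle doubled. Below 0 lay 14 of the 29, against 47.9% of all genes. The tamoxifen value was the lowest of the 3 columns for 14 of the 29, against 34.6% of all genes. Both ligand comparisons use the same vehicle values, so their members are set side by side below without an overlap.

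Between the ligands, 24 of the 29 NF-kB genes had a lower value with tamoxifen than with estradiol, against 53.1% of all genes. The median difference was -0.26, against -0.02 over all genes. At 1.5-fold, ICAM1, RELB and SDC4 were lower (2.2% of all genes) and none was higher (1.57%). The 5 genes above 0 were PTX3, NFKBIB, TNFAIP8, RIPK2 and CD83, and the highest of them was PTX3 at 0.18. Without probe sets of the types that can read several transcripts, 19 genes remained and their median was -0.14. ICAM1 is read only by such probe sets and was not among the 19. Among the markers of other cell types above the floor, ESR1 was lower with tamoxifen than with estradiol (-0.75) and PTPRC higher (0.62). Both passed 1.5-fold, while EPCAM, GATA3, PECAM1, VWF and COL1A1 lay between -0.16 and 0.14. The part of these markers in the NF-kB differences was not tested. The control transcripts also read lower with tamoxifen than with estradiol, by a median of -0.16 for the poly-A spikes and -0.12 for 18 hybridisation probe sets, and the part of this in the NF-kB median was not tested.

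**Figure D1:**
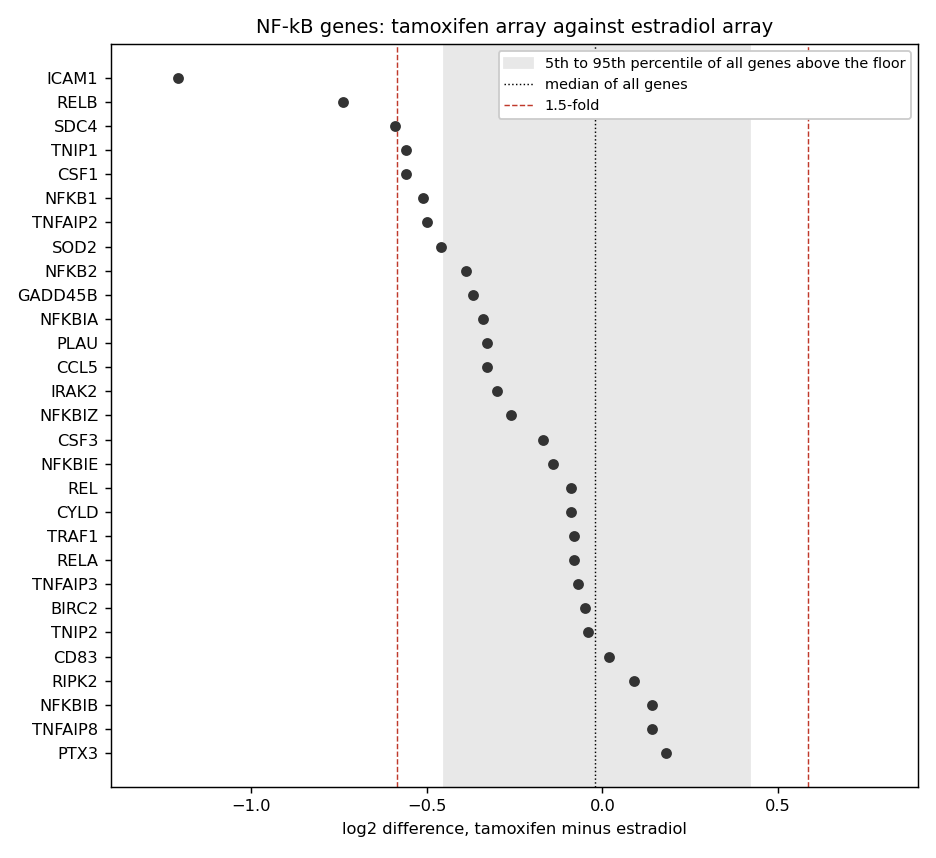
Log2 difference between the tamoxifen and estradiol arrays for the 29 NF-kB genes above the brightness floor, 1 point per gene, with the 5th to 95th percentile of all 12067 genes in grey and 1.5-fold as dashed lines. ICAM1 and RELB lie farthest to the left, and 24 of the 29 points lie below 0.

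Of the 5 subunit genes, RELB and NFKB1 differed most with estradiol by their brightest probe sets, and RELA, which encodes the main activating subunit, differed least. With all probe sets averaged REL lay above NFKB1 (0.65 against 0.61). RELB, the partner of p52 in the alternative pathway, had values of 0.04 with vehicle, 0.79 with estradiol and 0.05 with tamoxifen. The estradiol value stood apart, and the other columns nearly coincided. RELB was thus higher with estradiol by 0.75 (1.68-fold; 0.70 with the vehicle doubled) and lower with tamoxifen than with estradiol by 0.74 (-0.74), while tamoxifen and vehicle differed by 0.01 (-0.04 doubled). NFKB1, the source of p105 and p50, showed the same order of columns with values of 0.02, 0.63 and 0.12. Its difference was 0.61 with estradiol (1.52-fold) and 0.10 with tamoxifen. Doubling the vehicle gave 0.58 with estradiol, just short of the size rule. Tamoxifen against estradiol stood at -0.51.

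NFKB2, the source of p100 and p52, had values of 0.11, 0.02 and -0.37 and was lowest with tamoxifen (-0.48 against vehicle, -0.60 doubled). Its second, dimmer probe set above the floor went the other way between the ligands, at 0.34 against -0.39. Against vehicle with tamoxifen it read -0.02, and another probe set, below the floor, read 0.16. RELA stood at 0.13, 0.09 and 0.02, and its differences were between -0.11 and -0.03. REL, a subunit prominent in lymphoid cells, stood at -0.25, 0.06 and -0.03 by its brightest probe set. That probe set was higher by 0.32 with estradiol and by 0.23 with tamoxifen (0.57 and 0.48 with the vehicle doubled). The other 4 REL probe sets ranged from 0.25 to 1.39 with estradiol. With tamoxifen all 5 ranged from -0.06 to 0.95. The probe sets at the ends of both ranges lay below the floor. The second REL probe set above the floor read 0.81 with estradiol and 0.92 with tamoxifen, past 1.5-fold with both. The mean of all 5, which includes those below the floor, was 0.65 with estradiol, past the size rule, and 0.53 with tamoxifen.

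Among the IkB family, NFKBIA alone had a difference over 0.2 in size with estradiol. NFKBIA encodes IkB-alpha, the classical feedback inhibitor, and its values were -0.32 with vehicle, 0.14 with estradiol and -0.19 with tamoxifen. Estradiol exceeded vehicle by 0.46 (1.38-fold), and by 0.78 (1.71-fold) with the vehicle doubled, which passed the size rule. Tamoxifen exceeded vehicle by 0.12 (0.44 doubled). Another NFKBIA probe set, too dim for the floor, read 0.10 with estradiol and 0.38 with tamoxifen. Between the ligands it read 0.29, against -0.34 for the brighter. NFKBIB and NFKBIE, further IkB proteins, had differences between -0.17 and 0.14 in the 3 comparisons as deposited. NFKBIZ, the nuclear IkB-zeta, had values of -0.08, -0.13 and -0.38 and was lowest with tamoxifen (-0.31 against vehicle). Its second probe set gave -0.42. BCL3, the remaining member of the family, has no probe set under its symbol alone and was not analysed here.

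The feedback regulators divided by gene. TNFAIP3, the ubiquitin-editing enzyme A20, had values of -0.20 with vehicle, 0.26 with estradiol and 0.19 with tamoxifen. Both ligand values lay above the vehicle value, by 0.46 and 0.40, and by 0.66 and 0.60 with the vehicle doubled. A second TNFAIP3 probe set gave 0.63 with estradiol and 0.26 with tamoxifen. TNIP1, a partner of A20, had values of 0.13, 0.09 and -0.47. It was lower with tamoxifen by 0.61 on the log2 scale (-0.61 against vehicle, 1.52-fold; -0.56 against estradiol). Its other, dimmer probe set gave 0.03 and -0.01 in these comparisons, and the mean of both was -0.29 against vehicle, so the TNIP1 difference rests on the brighter of its 2 probe sets. TNIP2, another A20 partner, had differences between -0.06 and -0.03. CYLD, a deubiquitinase that restrains the pathway, had 7 probe sets whose estradiol differences ran from -0.31 to 1.18. All 7 were lower with tamoxifen than with estradiol, from -1.21 to -0.08. The readings of 1.18 and -1.21 came from 1 probe set below the floor. The 5 above the floor ran from -0.31 to 0.43 with estradiol and from -0.57 to -0.08 between the ligands. The brightest of them stood at -0.08 with estradiol and -0.17 with tamoxifen. ZC3H12A, an RNase that degrades cytokine messages, was not analysed here.

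Of the 4 signal transducers above the floor, TRAF1 and IRAK2 passed 1.5-fold with estradiol, and TRAF1 alone passed with tamoxifen. Over all genes 5.83% were higher with estradiol and 6.97% with tamoxifen. TRAF1, an adaptor induced by NF-kB, had values of -0.16, 0.52 and 0.44. Both ligand values lay well above vehicle, by 0.68 and 0.59 (0.83 and 0.75 doubled), and they differed by 0.08 from each other (-0.08). The second TRAF1 probe set, below the floor, did not show this and gave 0.00 and -0.29, and the mean of both fell short of 1.5-fold (0.34 and 0.15). IRAK2, a kinase of the interleukin 1 receptor complex, stood at 0.06, 0.77 and 0.47, a difference of 0.71 with estradiol and 0.41 with tamoxifen (0.65 and 0.35 doubled). Its other probe sets, both below the floor, read 0.02 and 0.40 with estradiol, and the mean of all 3 was 0.38. RIPK2, the kinase downstream of NOD receptors, stood at 0.05, 0.49 and 0.57. Its differences from vehicle were 0.44 and 0.53. BIRC2, the ubiquitin ligase cIAP1, was nearly level, with differences of -0.03, -0.08 and -0.05. MAP3K8, a kinase bound by p105, had both probe sets below the floor, and these disagreed in sign with estradiol (0.32 and -0.28) and with tamoxifen (0.36 and -0.45). BIRC3 and TRAF2 were not analysed here.

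**Figure D2:**
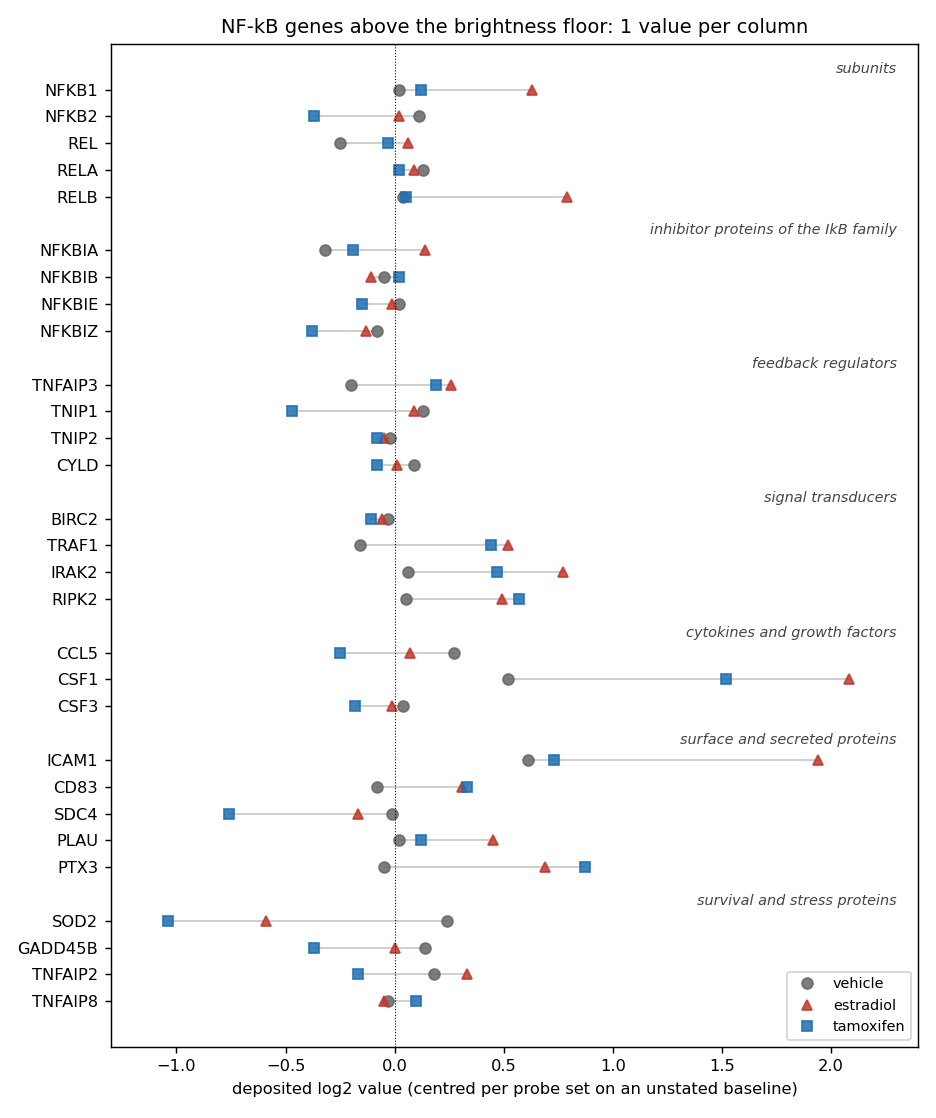
Deposited log2 values of the 29 NF-kB genes above the floor in the vehicle (circles), estradiol (triangles) and tamoxifen (squares) columns, grouped by role, with 1 value per column and no replicate. The widest gaps are those of CSF1 and ICAM1, and the estradiol value of RELB (0.79) stands away from its vehicle (0.04) and tamoxifen (0.05) values.

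Of the 8 cytokine and growth factor genes with a probe set, 3 lay above the floor, and CSF1 had the largest estradiol difference of all NF-kB genes. CSF1, the macrophage colony-stimulating factor, had values of 0.52 with vehicle, 2.08 with estradiol and 1.52 with tamoxifen. Both ligand values were far above vehicle, and the estradiol value was the higher of them. CSF1 was 2.95-fold higher with estradiol (1.56), the 27th largest difference of 12067 genes, and 2.00-fold higher with tamoxifen. With the vehicle doubled these were 1.04 and 0.48, so the tamoxifen difference no longer passed 1.5-fold. This rests on the single CSF1 probe set above the floor. The other 3 CSF1 probe sets, below the floor, gave 0.00, 0.38 and 0.66 with estradiol and between -0.02 and 0.12 with tamoxifen. The mean of all 4 was 0.28 with tamoxifen. Between the ligands the probe set above the floor read -0.56, and the others read -0.68, -0.26 and 0.02. CCL5, a T cell attracting chemokine, had values of 0.27, 0.07 and -0.25 by the probe set above the floor, and -0.53 with tamoxifen (-0.80 doubled). The other CCL5 probe sets, below the floor, gave 0.17 and 0.40 with estradiol, against -0.20 for the brightest. CSF3, the granulocyte colony-stimulating factor, stood at 0.04, -0.01 and -0.18.

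The other 5 genes of this group lay below the floor, where values carry little information, and are given only as readings. IL1B, a central inflammatory cytokine, had 2 probe sets, which gave 0.68 and 0.70 with estradiol and 0.45 and 0.35 with tamoxifen. The IL1B readings thus pointed upward in both probe sets with both ligands. IL1A, its relative, gave 0.70 and 0.18 with estradiol and -0.13 and -0.63 with tamoxifen, so both probe sets were lower with tamoxifen than with estradiol (-0.83 and -0.81). CCL2, a monocyte-attracting chemokine, gave 0.65 and 0.23 by its single probe set. TNF gave -0.03 and 0.17, and CCL20 gave -0.09 and 0.11. Neither gene had a reading past 1.5-fold as deposited. CCL20 stood at -0.72 with estradiol once its vehicle value was doubled. CSF2 was not analysed here.

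Surface and secreted proteins held the widest difference between the ligands. ICAM1, an adhesion molecule bound by leukocyte integrins that NF-kB induces in many cell types, had values of 0.61 with vehicle, 1.94 with estradiol and 0.73 with tamoxifen. The estradiol value was high and the tamoxifen value lay near vehicle in this mean of the 2 probe sets above the floor. ICAM1 was 2.52-fold higher with estradiol than vehicle (1.34) and 2.32-fold lower with tamoxifen than with estradiol (-1.21), the 14th lowest difference of 12067 genes. Its 3 probe sets gave -1.34, -1.09 and -1.19 between the ligands, so the reading below the floor ran the same way. All 3 are of a type that can read several transcripts. Against vehicle they gave 1.41, 1.26 and 0.53 with estradiol. The tamoxifen difference from vehicle was 0.12, and -0.49 with the vehicle doubled. The probe set below the floor read -0.66 there, and the mean of all 3 was -0.14. Doubling lowered the estradiol difference to 0.73 (1.66-fold).

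PTX3, a long pentraxin of innate immunity, stood at -0.05, 0.69 and 0.87. It was the NF-kB gene with the largest upward difference from vehicle after CSF1 on the tamoxifen array (0.91, 1.89-fold), and with estradiol it was 1.66-fold higher (0.73). The doubled vehicle gave 0.96 and 0.78. This shift equals the vehicle value in size, so for PTX3 it could only be small. PLAU, the urokinase protease, had values of 0.02, 0.45 and 0.12, and its estradiol value was the highest. Its probe sets gave 0.42 and 0.75 with estradiol and 0.10 and 0.08 with tamoxifen, and their mean with estradiol (0.59) passed 1.5-fold. SDC4, a heparan sulfate proteoglycan, showed another order, with values of -0.01, -0.17 and -0.76. It was lower with tamoxifen, at -0.75 against vehicle (1.68-fold, -0.74 doubled) and -0.59 against estradiol. CD83, a surface protein of activated dendritic cells, was higher with both ligands by 0.39 and 0.41 (0.47 and 0.49 doubled).

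**Figure D3:**
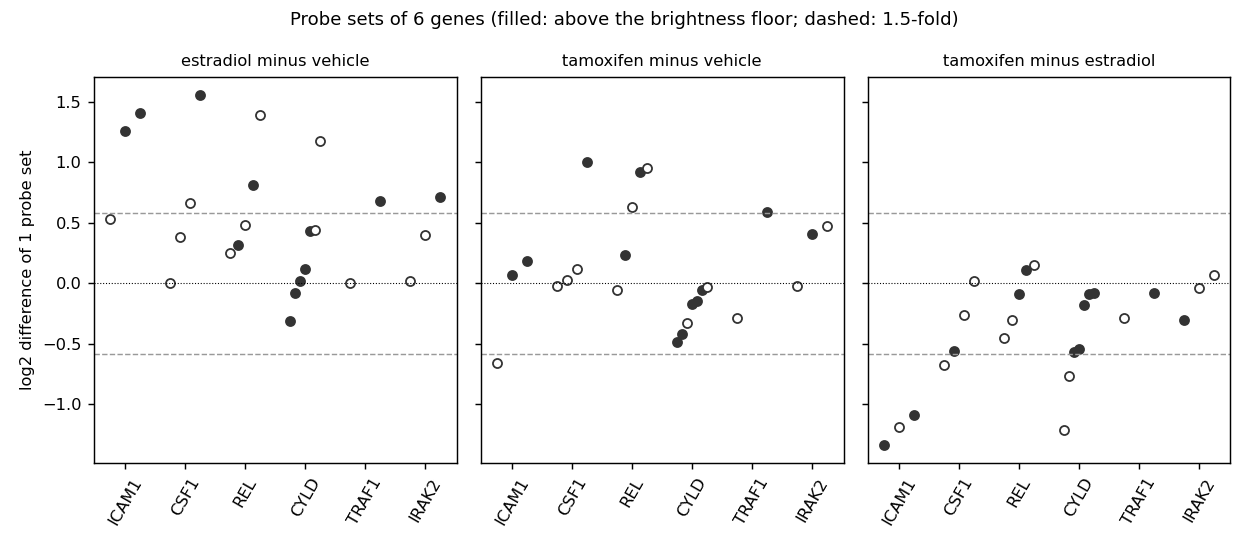
Log2 differences of single probe sets for ICAM1, CSF1, REL, CYLD, TRAF1 and IRAK2 in the 3 comparisons, with filled points above the brightness floor, open points below it and 1.5-fold as dashed lines. The 3 ICAM1 probe sets lie together between the ligands (-1.34 to -1.09), while the 7 CYLD probe sets spread from -0.31 to 1.18 with estradiol. The CYLD probe set at 1.18 lies below the floor.

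In the group of survival and stress proteins, SOD2 alone of the 4 genes above the floor passed 1.5-fold as deposited. SOD2 was lower, as were 2.65% of all genes with estradiol and 4.33% with tamoxifen. The tamoxifen value was the lowest for 3 of the 4, against 34.6% of all genes. SOD2, the mitochondrial superoxide dismutase and a strong NF-kB target in many cells, was read here by 1 probe set, with values of 0.24, -0.59 and -1.04. That probe set was lower with estradiol by 0.83 (-0.83, 1.78-fold) and with tamoxifen by 1.28 (-1.28, 2.44-fold), and doubling the vehicle gave -1.07 and -1.53. It was the 22nd lowest of 12067 genes in the tamoxifen comparison. Another 4 probe sets carry the SOD2 symbol beside a second symbol and were left out, so this reading may not stand for the main SOD2 transcript. GADD45B, a stress-induced growth regulator, stood at 0.14, 0.00 and -0.37 over 3 probe sets. Its tamoxifen differences from vehicle were -0.43, -0.54 and -0.55 in these 3, and their mean of -0.51 became -0.65 with the vehicle doubled. TNFAIP2 had values of 0.18, 0.33 and -0.17 and a tamoxifen difference of -0.50 from estradiol. TNFAIP8 stayed between -0.05 and 0.10 in all columns. BCL2A1, a survival protein of the BCL2 family, lay below the floor and read 0.45 with estradiol and -0.09 with tamoxifen.

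**Figure D4:**
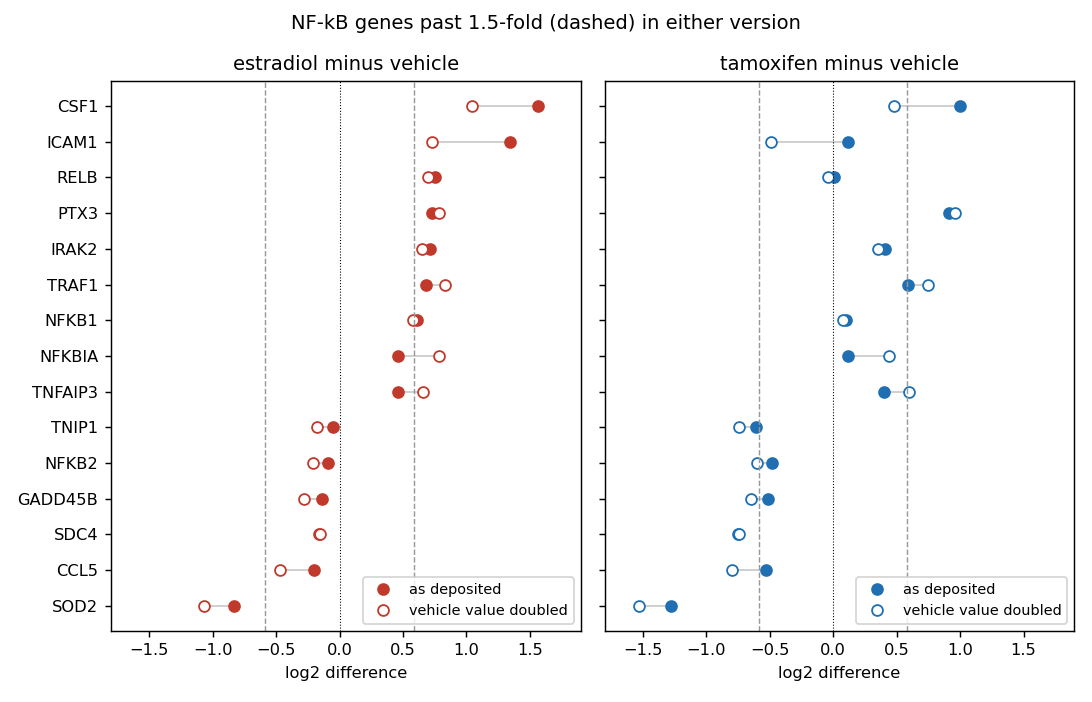
Log2 differences from vehicle with estradiol (left) and tamoxifen (right) as deposited (filled) and with the vehicle value doubled (open), for the 15 NF-kB genes past 1.5-fold (dashed) in either version of either comparison. CSF1 and ICAM1 move most between the versions, and RELB, PTX3, IRAK2 and SDC4 move little. Each gene moves by the size of its own vehicle value.

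The rest of the pathway was read from 4 lists of 80 genes in all, of which 58 lay above the floor. With estradiol 11 of the 58 were at least 1.5-fold higher and 1 was lower, against 5.83% and 2.65% of all genes. With tamoxifen 8 were higher and 1 lower, against 6.97% and 4.33%. With the vehicle doubled 7 were higher with estradiol (4.39% of all genes) and 8 with tamoxifen (7.14%), and none was lower (1.92% and 3.64%). Between the ligands none was higher (1.57%) and 1 was lower (2.2%). The list medians for tamoxifen against estradiol lay between -0.22 and 0.04, against -0.26 for the NF-kB genes.

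Of 14 receptors and adaptors above the floor, IL1RAP and TLR2 passed 1.5-fold with estradiol (5.83% of all genes were higher). IL1RAP, the accessory chain of the interleukin 1 receptor, had values of 0.51, 1.91 and 1.87, higher by 1.40 and 1.36 with the ligands (0.89 and 0.85 doubled). TLR2, a receptor for bacterial lipoproteins, was higher by 0.76 and 0.58 (0.66 and 0.48 doubled), and TLR4, the endotoxin receptor, by 0.49 and 0.27 (0.15 and -0.07 doubled). TNFRSF1B, the second TNF receptor, stood at -0.27 and -0.39. Among 17 kinases and ubiquitin enzymes, TAB3, an adaptor of the kinase TAK1, was higher by 1.18 and 1.28 (0.81 and 0.91 doubled). MAP3K7, which encodes TAK1, was higher by 0.70 and 0.74, but by 0.11 and 0.14 once the vehicle was doubled. TBK1, a kinase related to the IkB kinases, was higher with tamoxifen by 0.68 and with estradiol by 0.33. CHUK, the IkB kinase alpha, was higher with tamoxifen by 0.50 (0.83 doubled).

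None of the 10 other inhibitors passed 1.5-fold in any comparison, as deposited or doubled. Over all genes 5.83% were higher and 2.65% lower with estradiol as deposited, and 6.97% and 4.33% with tamoxifen. Between the ligands the shares were 1.57% and 2.2%. A count of none among 10 genes lies near these shares. The largest differences among the inhibitors were those of IRAK3 (-0.50 with estradiol), PELI1 (0.43 with tamoxifen), OTULIN (-0.33 with estradiol) and NFKBIL1 (-0.30 with tamoxifen). Of 17 other target genes above the floor, 7 were higher and 1 lower with estradiol, against 5.83% and 2.65% of all genes. With tamoxifen 4 were higher and 1 lower, against 6.97% and 4.33%. With the vehicle doubled 4 were higher with each ligand (4.39% and 7.14% of all genes) and none lower. PTGS2, the inducible cyclooxygenase, stood at 0.77, 2.76 and 2.39, and IRF1, an interferon regulatory factor, at -0.45, 0.34 and 0.36. IRF1 was higher by 0.79 and 0.81, and by 1.24 and 1.25 with the vehicle doubled. TNFSF10, the death ligand TRAIL, was higher by 1.53 and 1.82 (0.57 and 0.86 doubled). IL15, a lymphocyte growth factor, was higher by 1.07 with estradiol and by 0.40 with tamoxifen (0.59 and -0.08 doubled), and it was the single gene of these lists past 1.5-fold between the ligands (-0.67).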

How the data were processed

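The series measured gene expression in MDA-MB-231 cells on Affymetrix arrays with 54675 probe sets, in 1 array each for vehicle, estradiol and tamoxifen. The authors' processing used RMA, per the submitters' processing notes, and the deposited values are on a log scale taken as log2. The base, the direction, the centring, its baseline and any pooling of arrays are not given in the sources used here. Column medians were -0.04, -0.02 and -0.02. The number of arrays limits the precision, and without replicates no test was run.

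Probe sets were named from the platform annotation when they carried 1 symbol (41097), while 1801 with several and 11777 not in that table were left out. Each probe set was placed in a brightness band by the finest binary step of its 3 numbers (tolerance 1e-09), with the vehicle step shifted by 1. By its construction this reading can place a probe set a band too bright. For each gene the probe sets of its highest band were averaged, and genes at 4 or more were kept (12067). Comparisons are differences of columns, and the size rule was 1.5-fold. The reading of bands was tested on simulated data in which the 3 columns were made alike. The shift of the vehicle step was not tested. Python 3.11.15, numpy 2.4.6 and pandas 2.3.3 were used.

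The members, lists and settings were chosen with earlier results of these data known. Every member was described. Of each pathway list the 4 with the largest difference in any comparison were named. Single probe sets were given where those of a gene lay apart by over 1.5-fold in a comparison, and others were added after their values were seen. Alternatives were no floor, a floor of 8, all probe sets averaged, no _s_at or _x_at probe sets, centring within bands, a doubled vehicle and 2-fold.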

Additional observations from a re-analysis of the deposited data

How the results depend on the processing

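Of 421 values of single genes under the alternatives, 404 kept their direction where past 1.5-fold and their side of that rule. Another 16 crossed the rule and 1 reversed. The settings without a floor and with a floor of 8 could not change the value of a gene. Their 87 and 45 values stayed the same by construction. Averaging all probe sets could not change a gene whose probe sets all lay in 1 band. Leaving out the _s_at and _x_at types could not change a gene with none of them in its brightest band. Values of such genes, RELB and PTX3 among them, also stayed the same by construction and are part of the 404. TNIP1 with tamoxifen went from -0.61 to 0.03 without probe sets of the _s_at and _x_at types, because its remaining probe set is another. The counts below at 2-fold, with a floor of 8 or with all probe sets averaged have no share of all genes beside them. They are not set against a background. With estradiol the count of higher genes (7) was 2 at 2-fold and 1 with a floor of 8, which kept 15 genes. The count of lower genes (1) was 0 at 2-fold. The estradiol median (-0.02) was 0.08 with no floor, 0.12 with all probe sets averaged, 0.04 without _s_at and _x_at probe sets and 0.01 with the vehicle doubled. With tamoxifen the count of higher genes (3) was 0 at 2-fold, 1 with a floor of 8 and 1 with all probe sets averaged. The count of lower genes (3) was 1 at 2-fold and 6 with the vehicle doubled (3.64% of all genes). The tamoxifen median (0.01) was -0.11 with a floor of 8, -0.06 with all probe sets averaged and -0.05 with the vehicle doubled. Between the ligands the count of lower genes (3) was 1 at 2-fold and 1 with a floor of 8, and the median (-0.26) was -0.14 without _s_at and _x_at probe sets. The cause was not tested where the alternative's own construction, fewer genes or a larger fold, does not give it. SDC4 between the ligands stood at -0.59 and, centred within brightness bands, at -0.58. Leaving out a replicate was not possible with 1 array per group. No paired analysis was possible because each group held 1 array. Dim genes are limited by signal over background: 7 of the 36 genes lay below the floor and gave readings only. The floor is a reading of brightness and not a detection call, so passing it does not make a value supported.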
